A study of Canis lupus familiaris with 124 samples.

Results

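Primary transitional cell carcinoma (TCC) tissues of dogs were compared with prostate adenocarcinoma (PAC) tissues by RNA sequencing, using the original tumor tissues and neither the cell lines grown from them nor the metastasis Ln6.2. The labels give 5 primary TCC tissues, namely P6.1 of the prostate and B7, B8, B9 and B10 of the bladder, and 3 PAC derived tissues (P2, Ln4.2 and Ln4.3), which are 8 of the 9 tissues and 8 of the 31 libraries in the series. B7, B8, B9 and B10 were bladder tumors of female dogs: a Labrador Retriever aged 10 years, a Cairn Terrier aged 11, a neutered Miniature Pinscher aged 8 and a German Shepherd aged 8. P6.1 was a TCC of the prostate from a neutered male Bolonka Zwetna aged 9. P2 was a prostate tumor from a male German Rough-haired Pointer aged 6, and Ln4.2 and Ln4.3 were lymph node metastases of the prostate tumor of the same neutered male Dobermann, also aged 6. The PAC tissues thus came from 2 dogs, and the TCC tissues from 5. The tumors were of patient dogs, no drug treatment is given in the labels, and the pieces were frozen whole. The study describes lymphoid and connective tissue beside tumor cells in Ln4.2 and Ln4.3 and almost only tumor cells in B7. All 3 PAC tissues were from males and 4 of 5 TCC tissues from females, so that sex, organ and tumor type cannot be told apart except through P6.1. Both PAC dogs were aged 6 years and the TCC dogs 8 to 11, so that age and tumor type cannot be told apart.

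TCC, also called urothelial carcinoma, arises from the lining epithelium of the urinary bladder, urethra and prostatic ducts, while PAC arises from the glandular epithelium of the prostate. Both occur in the canine prostate and are hard to separate by morphology. Urothelium is a layered epithelium with TP63-positive basal cells on a laminin basement membrane, and the glandular prostate depends on androgens and on transcription factors such as HOXB13. Carcinomas also contain fibroblasts that lay down collagen, blood vessels, lymphocytes and macrophages, and a bulk tissue library sums the RNA of all of them. In such libraries, fewer cells of a type and less RNA per cell cannot be told apart.

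Each tissue was represented by 1 library sequenced on 4 lanes, with 11920463 to 18086895 expected counts after summing the lanes. Between 12993 (B7) and 14650 (Ln4.2) genes had at least 10 counts. Levels are given as CPM (counts scaled by library size and TMM factors), and differences as log2 fold changes of TCC minus PAC, so that positive values are higher in TCC. PCA of the log2 CPM of 13755 genes separated the groups on PC1, which held 46.2% of the variance (jackknife standard error 10.4). The TCC scores on PC1 ran from -86.9 (B7) to -13.6 (P6.1), and the PAC scores from 56.2 (Ln4.3) to 126 (P2). B7 stood apart from the other bladder tumors on PC2 (17.8% of the variance), with a score of 96.3 against -36.6 in B8, -37.5 in B9 and -61.4 in B10. P6.1, the only TCC of the prostate, had the lowest score on PC3 (11.2%). In correlations across genes (genes are no independent replicates), the tissues of the Dobermann were the most alike pair (Pearson's r = 0.934), followed by B8 and B9 (0.918). P6.1 correlated most with B9 (0.874) and B8 (0.872), and with Ln4.2 (0.842) about as strongly as with B7 (0.838) and B10 (0.838), and the least alike pair was B7 and P2 (0.602).

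**Figure D1:**
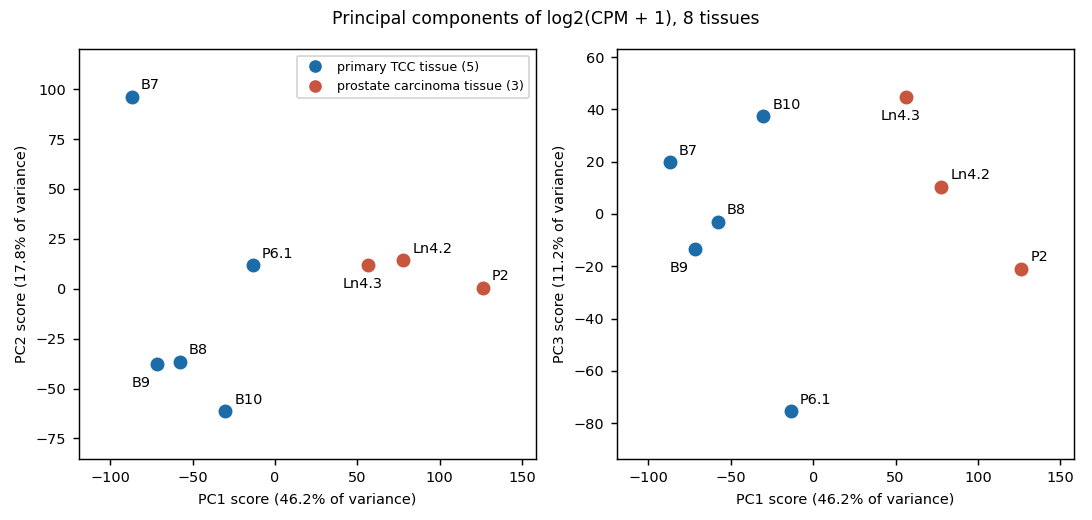
Scores of the 8 tissues on PC1, PC2 and PC3 of log2(CPM + 1), 1 point per tissue. On the horizontal axis all 5 TCC tissues lie below 0 and all 3 PAC tissues above 56, with P6.1 at -13.6 nearest to the PAC tissues and B7 at 96.3 alone at the top of PC2.

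To ask which genes separated both tumor types, edgeR's quasi-likelihood test was applied to the 13755 genes with at least 10 counts in every tissue of a group. A gene that was low in a group could enter only through the group where it was high. TP63, for example, entered through the TCC tissues alone, and IGF1, FGF23, TBX18, P2RY10 and LY86 through the PAC tissues alone. At the threshold of the study, an adjusted p (Benjamini-Hochberg) no higher than 0.01 with a change of 2-fold or more, 0 genes (0% of those tested) were called, while 3412 had an unadjusted p under 0.05 and DESeq2 called 1438 (10.5%), 410 higher in TCC (2.98%) and 1028 higher in PAC (7.47%). The lowest adjusted p of edgeR was 0.0111. At an adjusted p of at most 0.05 with the same fold change, edgeR called 850 genes (6.18%), of which 188 (1.37%) were higher in TCC and 662 (4.81%) were higher in PAC. This wider threshold had been listed beside the stricter one and is used for the calls below, after the stricter one gave none. DESeq2 called 843 of the 850 in the same direction at its adjusted p of at most 0.01, and in 818 of the 850 the CPM of the groups did not overlap. The 850 genes were chosen for differing between these same tissues, so that neither count is independent support. Over all genes tested, all TCC tissues lay above all PAC tissues for 1382 (10.0%) and below them for 1431 (10.4%).

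The calls depended on how the Dobermann's tissues and sex were treated. With Ln4.2 and Ln4.3 summed into 1 sample per dog, 470 of 14413 genes (3.26%) were called, 40 higher in TCC and 430 higher in PAC, and 408 were shared with the 850. With limma-voom and the dog as a block (correlation within the dog 0.899), 0 genes passed an adjusted p of 0.05 (lowest 0.095). An unadjusted p under 0.05 was found for 2039. The correlation rests on the pair Ln4.2 and Ln4.3 alone. It was estimated by a separate likelihood search, because limma's own estimate gave no value. With sex as a covariate, which compares P6.1 alone with the 3 PAC tissues, edgeR also called 0 genes, with 1145 at an unadjusted p under 0.05. Leaving out a tissue gave 123 calls without B8, 225 without B9, 159 without P2, 255 without Ln4.2 and 481 without Ln4.3, and 851 to 1095 without P6.1, B7 or B10. The log2 fold change kept its sign for all 850 genes in the fit per dog, with the dog as a block and with sex as a covariate. These fits reuse the tissues from which the 850 genes were chosen, so that a kept sign is no independent support.

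Of the 850 genes, 83 could be paired with a symbol, 12 higher in TCC and 71 higher in PAC. Symbols came from the study's supplement on genes that differed between cell lines and tissues or ranked for drug resistance. The 83 are therefore no even sample of the 850. Besides TP63, ITGB6 and LAMA3, described below, those higher in TCC included SPTSSB, MREG, SLC22A23, RGS22, APOOL, SLC2A10, THOC3 and AKTIP, which are on none of the lists and were not called per dog. The 17 gene lists used here cover epithelial, stromal, endothelial and immune cells, hormone receptors, transcription factors, cytokines, kinases and mitosis. None of the 22 urothelial markers on the lists (uroplakins, keratins, GATA3 and others) had an identifier with a symbol, so that the urothelial character of the TCC tissues was not analysed here. The median log2 fold change over all genes tested was 0.19, with 8164 of 13755 genes above 0 and 5591 below. The shares over all genes, 1.37% called higher in TCC and 4.81% higher in PAC, are the background for the counts of members below. The lists with the lowest medians were those of fibroblasts and matrix (-3.41), lymphocytes (-2.97), endothelium (-2.18), smooth muscle and muscle (-2.06) and myeloid cells (-2.04). The highest medians were those of prostate markers (1.77), epithelial junctions and luminal membrane (1.497), retinoid metabolism (1.28), hormone receptors and androgen independence (1.07) and basal and squamous epithelium (0.96).

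**Figure D2:**
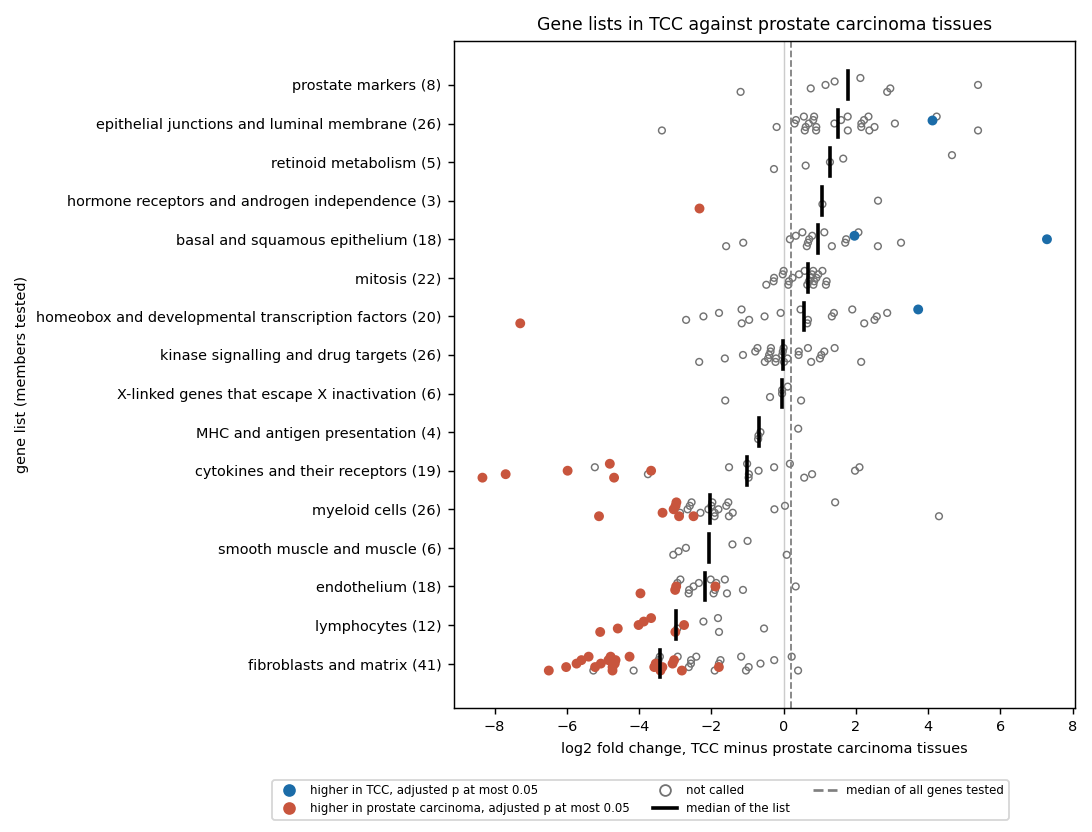
Log2 fold change (TCC minus PAC) of each tested member of 16 gene lists, 1 point per gene, with lists ordered by their median (black bar). Filled points passed an adjusted p of 0.05, and most of them lie to the left among matrix, lymphocyte, myeloid, endothelial and cytokine genes, against a median of all genes of 0.19 (dashed line).

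The genes called higher in TCC included TP63, the transcription factor of basal epithelial cells. TP63 (ENSCAFG00000013961) had 44.6 CPM in P6.1, 186 in B7, 37.9 in B8, 59.1 in B9 and 11.05 in B10, against 0.216 in P2, 0.407 in Ln4.2 and 0.645 in Ln4.3. The lowest TCC tissue, B10, was still far above the highest PAC tissue, and the groups did not overlap. The log2 fold change was 7.29 (SE 1.12, edgeR adjusted p = 0.0142, per dog 0.0355, dog as a block 0.185), and the call was lost without P2. ITGB6, the beta subunit of an epithelial integrin that binds fibronectin and latent TGF-beta, had 136 CPM in P6.1, 202 in B7, 52.1 in B8, 60.7 in B9 and 31.9 in B10, against 4.03 in P2, 4.68 in Ln4.2 and 8.13 in Ln4.3. Its log2 fold change was 4.102 (SE 0.73, adjusted p = 0.0201, per dog 0.0488, dog as a block 0.185), and the call was lost without P2 and without Ln4.2. B7 was the highest of the 8 tissues for both genes and B10 the lowest TCC tissue. LAMA3, the alpha chain of the epithelial laminin-332, was higher in TCC by 1.96 on the log2 scale (SE 0.45, adjusted p = 0.0395), with 545 CPM in P6.1, 668 in B7, 315 in B8, 364 in B9 and 207 in B10 against 85.3 in P2, 107 in Ln4.2 and 132 in Ln4.3, but was not called per dog (adjusted p = 0.0991) or without any of 6 of the 8 tissues.

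In the list of basal and squamous epithelium, 18 members were tested, with 2 called higher in TCC (TP63 and LAMA3) and 0 higher in PAC. Over all genes tested, 1.37% were called higher in TCC. Of the 18, 16 had a positive log2 fold change, against 8164 of all 13755 genes tested. RIPK4, a kinase of keratinocyte differentiation, and RHOV, a small GTPase, had the largest differences among those not called. RIPK4 had 179.6 CPM in P6.1, 7.03 in B7, 215 in B8, 311 in B9 and 344 in B10, against 4.46 in P2, 26.8 in Ln4.2 and 35.4 in Ln4.3 (log2 fold change 3.25, adjusted p = 0.118), so that B7 overlapped with the PAC tissues. RHOV did not overlap between the groups, at 20.3 to 61.03 CPM in TCC and 0.864 to 9.78 in PAC (log2 fold change 2.61, adjusted p = 0.0714). Other basal adhesion genes overlapped widely. LAMB3, another chain of the same laminin, had 24.3 (B10) to 1037 (P6.1) CPM in TCC and 12.7 (P2) to 480.0 (Ln4.3) in PAC (adjusted p = 0.745). CDH3, the P-cadherin of basal cells, had 796 CPM in B7 and 301 in P6.1 but 9.902 to 15.3 in the other TCC tissues, with 87.9 and 112 in the metastases and 4.75 in P2 (adjusted p = 0.536).

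Of the 26 genes of epithelial junctions and luminal membrane, ITGB6 was the only one called (1.37% of all genes tested were called higher in TCC). Of the 26, 24 had a positive log2 fold change, against 8164 of all 13755 genes tested. In 8 the groups did not overlap, with TCC higher (10.0% of all genes tested). EPCAM, a surface protein of most carcinoma cells, had 419 CPM in P6.1, 330.2 in B7, 2071 in B8, 1913 in B9 and 1589.9 in B10, against 18.1 in P2, 204 in Ln4.2 and 227 in Ln4.3 (log2 fold change 3.08, SE 0.99, adjusted p = 0.0978). The groups did not overlap, but P2 lay far below the metastases of the Dobermann. P2 was also far below the metastases in CLDN7, a claudin of tight junctions, with 2.88 CPM in P2, 94.5 in Ln4.2 and 159.9 in Ln4.3, while the TCC tissues had 86.3 to 157 and overlapped with the metastases (adjusted p = 0.709). PERP, a desmosomal protein, had 8.71 CPM in P2, 244 in Ln4.2 and 291 in Ln4.3, against 378 to 903 in TCC without overlap (adjusted p = 0.251). MUC13, a membrane mucin, reached 583 CPM in B7 and 25.5 in P2, and stayed at 0.611 and 1.35 in the metastases (log2 fold change 4.24, adjusted p = 0.161). PKP2, a desmosomal plakophilin, went the other way, with 221 and 231 CPM in the metastases and at most 30.6 in TCC, but 4.53 in P2 (log2 fold change -3.37, adjusted p = 0.105).

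The level of epithelial genes differed between the tissues along with the tumor type, and its part in the other results was not tested. The summed CPM of the epithelial junction list was 5542 in P6.1, 6734 in B7, 6833 in B8, 9168 in B9 and 5873 in B10, against 779 in P2, 2614 in Ln4.2 and 3198 in Ln4.3. When the libraries were scaled to the 26 genes of this list in place of TMM, an alternative chosen after seeing the data, the median log2 fold change over all genes moved to -2.07. TP63 was again called higher in TCC (log2 fold change 5.74, adjusted p = 0.000181), and TMPRSS2 passed the test on this scale (4.16, 0.00291). TMPRSS2 and ITGB6 are themselves among the 26 genes that set the scale. For TP63 the log2 fold change was smaller than with TMM (7.29) and its SE larger (1.26 against 1.12). The fit called 7457 of 13755 genes, so that its adjusted p values cannot be set beside those with TMM and show no firmer result. LAMA3 had a log2 fold change of -0.08 (adjusted p = 0.932) and ITGB6 of 2.22 (0.05001). Per 100 CPM of EPCAM, TP63 had 10.6 CPM in P6.1, 56.4 in B7, 1.83 in B8, 3.09 in B9 and 0.695 in B10, and 1.20 in P2, 0.1996 in Ln4.2 and 0.285 in Ln4.3. On that scale P2 lay above B10, and the metastases lay below all TCC tissues. LAMA3 had 472 CPM per 100 CPM of EPCAM in P2, more than in any TCC tissue. Because this scaling lowers the log2 fold change of all genes, small positive values such as that of LAMA3, and the medians of the basal, junction, prostate and mitosis lists, lose their sign by construction.

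**Figure D3:**
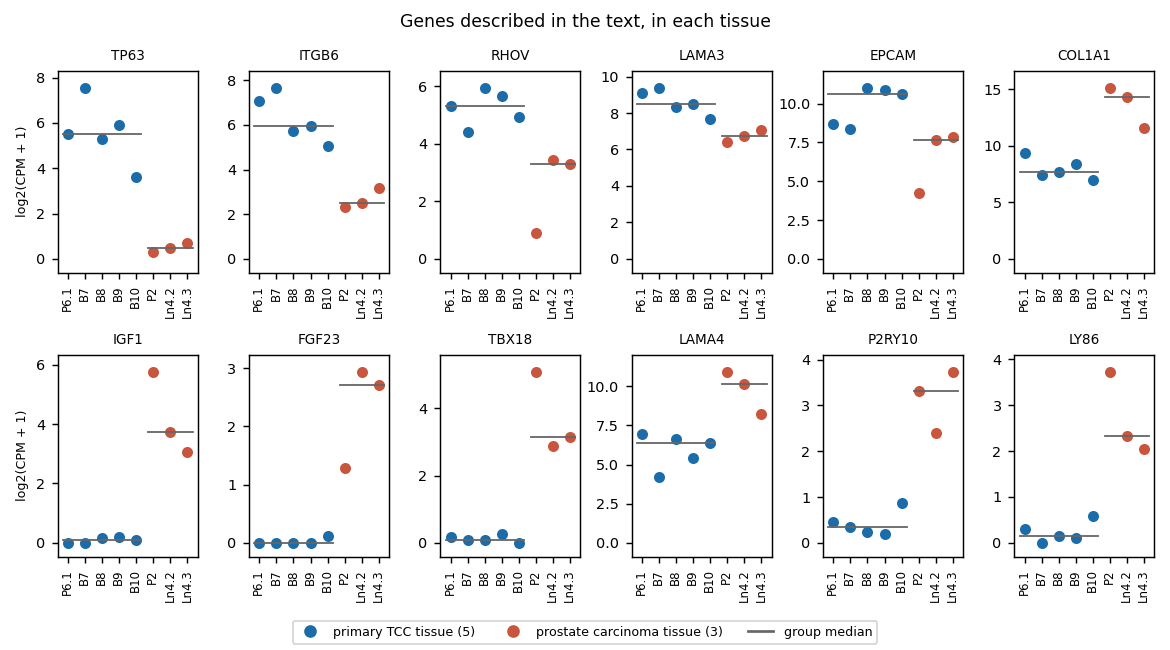
Levels of 12 genes in each tissue as log2(CPM + 1), 1 point per tissue, with the group median as a line. TP63, ITGB6, RHOV and LAMA3 are higher in every TCC tissue, COL1A1, IGF1, FGF23, TBX18, LAMA4, P2RY10 and LY86 are higher in every PAC tissue, and EPCAM shows P2 far below the other 7 tissues.

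Matrix genes had the most called members of any list, and 45 of the 51 genes on that list had an identifier. This coverage differed between the lists, down to 0 of 22 urothelial markers, so that the counts do not rank the lists evenly. Of 41 tested genes of fibroblasts and matrix, 22 were called higher in PAC (4.81% of all genes tested) and 0 higher in TCC. Of the 41, 39 had a negative log2 fold change. In 21 the groups did not overlap, with PAC higher (10.4% of all genes tested). COL1A1, a chain of the fibrillar type I collagen, had 676 CPM in P6.1, 170.0 in B7, 208 in B8, 342 in B9 and 126 in B10, against 36221 in P2, 19922 in Ln4.2 and 3121 in Ln4.3 (log2 fold change -6.02, SE 0.901, adjusted p = 0.0132, per dog 0.01897, dog as a block 0.198). P2 was the highest tissue, and Ln4.3 was the lowest PAC tissue but above every TCC tissue. COL1A2, its partner chain, kept its call with each tissue left out in turn (log2 fold change -5.73, adjusted p = 0.0121), while COL1A1 lost it without B8. EFEMP1, a fibulin of elastic matrix, had 9.53 CPM in P6.1, 0.268 in B7, 0.746 in B8, 7.07 in B9 and 30.4 in B10, against 1149.6 in P2, 1391 in Ln4.2 and 64.9 in Ln4.3. LOX, which cross-links collagen and elastin, had 0.861 to 9.77 CPM in TCC and 373 in P2, 284 in Ln4.2 and 16.5 in Ln4.3. ELN, elastin itself, had 0.0669 to 13.3 CPM in TCC and 134 in P2, 340.2 in Ln4.2 and 22.3 in Ln4.3. Their log2 fold changes were -6.500 (adjusted p = 0.0382), -5.597 (0.0285) and -5.397 (0.0486), and ELN was not called per dog (0.06502).

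Several matrix genes did not pass the test. DCN, the collagen-binding proteoglycan decorin, had 1446 CPM in P6.1, 4.08 in B7, 24.3 in B8, 85.7 in B9 and 34.5 in B10, against 3210.1 in P2, 2385 in Ln4.2 and 73.3 in Ln4.3 (log2 fold change -2.57, adjusted p = 0.369). P6.1 lay between Ln4.3 and Ln4.2, and Ln4.3 lay below B9. ABI3BP, a matrix protein, did not overlap, at 0 to 9.97 CPM in TCC and 43.3 to 194 in PAC (log2 fold change -5.27, adjusted p = 0.0548). COL6A5, a chain of collagen VI, had 86.9 CPM in Ln4.3 and 48.3 in Ln4.2, but 2.88 in P2 and 12.4 in B10 (log2 fold change -4.15, adjusted p = 0.173). LOXL1 and SULF1 were the 2 tested members with a positive log2 fold change, at 0.40 and 0.22. The number of called members was 2 without B8, 5 without B9, 5 without P2, 7 without Ln4.2, 15 without B10 and 10 without both lymph node tissues.

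**Figure D4:**
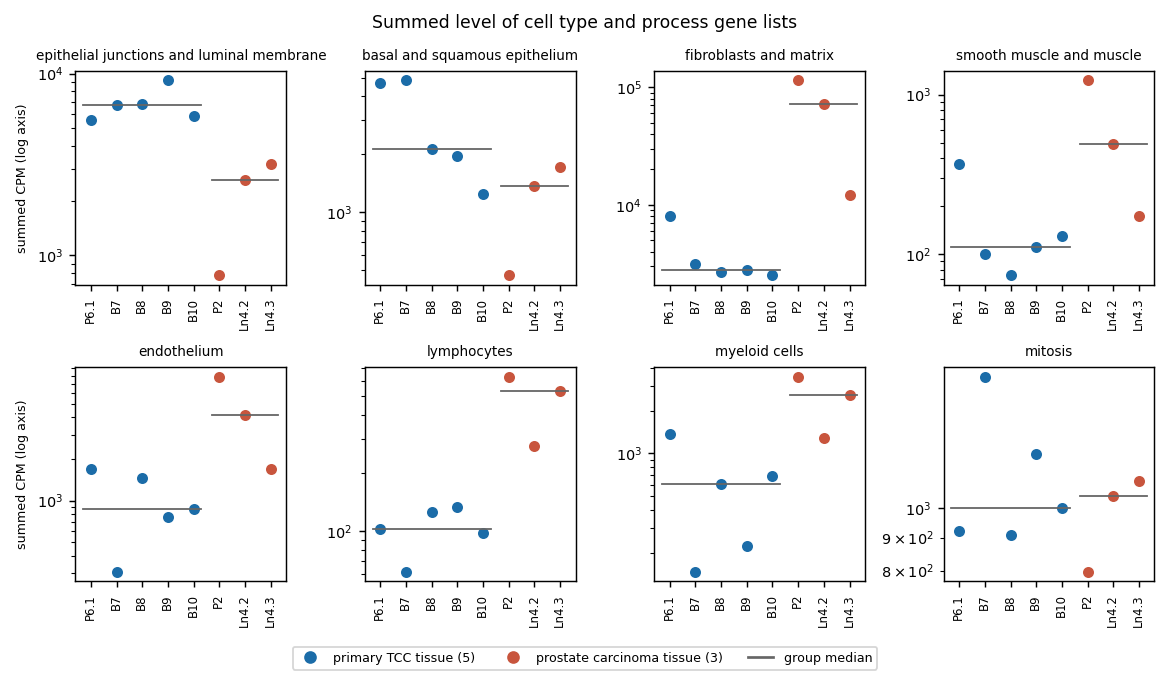
Summed CPM of 8 gene lists in each tissue on a log axis, 1 point per tissue, with the group median as a line. The matrix and lymphocyte sums are higher in all 3 PAC tissues than in all 5 TCC tissues, the epithelial junction sums are lower, and the mitosis sums overlap.

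The summed CPM of the matrix list was 8064 in P6.1, 3118 in B7, 2692 in B8, 2811 in B9 and 2528 in B10, against 114286 in P2, 72464 in Ln4.2 and 12057 in Ln4.3. P6.1 was the highest TCC tissue, and B7, B8, B9 and B10 lay close together. Smooth muscle and muscle genes were summed to 369 in P6.1, 100.4 in B7, 73.9 in B8, 112 in B9 and 129.9 in B10, against 1226 in P2, 492 in Ln4.2 and 173 in Ln4.3, so that P6.1 lay above Ln4.3. None of the 6 tested members of that list was called. ACTA2, the smooth muscle actin that also marks activated fibroblasts, had 12.1 (B9) to 126 (P6.1) CPM in TCC and 879 in P2, 282 in Ln4.2 and 93.7 in Ln4.3 (log2 fold change -3.05, adjusted p = 0.0732), and FLNC, a muscle filamin, had a log2 fold change of -2.91 (adjusted p = 0.0607).

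Among 18 tested endothelial genes, 4 were called higher in PAC (4.81% of all genes tested) and 0 higher in TCC. A negative log2 fold change was seen in 17, against 5591 of all 13755 genes tested. LAMA4, the laminin chain of vessel basement membranes, had 119.6 CPM in P6.1, 17.3 in B7, 98.4 in B8, 41.6 in B9 and 82.2 in B10, against 1926 in P2, 1145 in Ln4.2 and 291 in Ln4.3 (log2 fold change -3.96, SE 0.73, adjusted p = 0.0224, per dog 0.0259, dog as a block 0.2398). TEK, the angiopoietin receptor, had 1.54 (B7) to 23.1 (B10) CPM in TCC and 128 in P2, 73.9 in Ln4.2 and 34.97 in Ln4.3 (log2 fold change -2.97, adjusted p = 0.0443, per dog 0.0674). PREX2, a Rac exchange factor, and PALD1, a vascular phosphatase-like protein, followed with -3.003 (adjusted p = 0.0341) and -1.89 (0.0455), and PALD1 was not called per dog (0.132). ICAM2, an adhesion molecule of vessel walls, and TSPAN18, an endothelial tetraspanin, did not overlap between the groups but missed the threshold, with log2 fold changes of -2.94 and -2.86 (adjusted p = 0.0592 and 0.0513). KDR, the main VEGF receptor, overlapped, with 38.04 CPM in P6.1, 15.1 in B7, 120.0 in B8, 75.7 in B9 and 53.8 in B10, against 211 in P2, 112 in Ln4.2 and 73.2 in Ln4.3 (adjusted p = 0.276). No endothelial member was called without B8, without B9, without P2 or without Ln4.2, and 1 was called without both lymph node tissues.

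Most lymphocyte genes had higher levels in all PAC tissues than in all TCC tissues. Of 12 tested members, 7 were called higher in PAC (4.81% of all genes tested) and 12 had a negative log2 fold change. In 10 the groups did not overlap, with PAC higher (10.4% of all genes tested). P2RY10, a lymphocyte receptor for lysophospholipids, had 0.364 CPM in P6.1, 0.268 in B7, 0.172 in B8, 0.1400 in B9 and 0.818 in B10, against 8.996 in P2, 4.28 in Ln4.2 and 12.3 in Ln4.3 (log2 fold change -4.59, SE 0.65, adjusted p = 0.0121, per dog 0.02104, dog as a block 0.1904). Ln4.2 was the lowest PAC tissue, and the call was kept with each tissue left out. GIMAP1, a GTPase of lymphocyte survival, had a log2 fold change of -4.01 (adjusted p = 0.0184). UBASH3A, a brake on T cell receptor signalling, and IL2RG, the shared subunit of several interleukin receptors, had -3.87 (0.0356) and -3.67 (0.0454), and both were lost per dog (0.0625 and 0.06795). GIMAP8, another GTPase of that family, and TCF7, a T cell transcription factor of the Wnt pathway, did not overlap but were not called (log2 fold changes -2.94 and -2.22, adjusted p = 0.0761 and 0.0696).

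The summed CPM of the 14 lymphocyte genes with an identifier was 103 in P6.1, 61.8 in B7, 126 in B8, 133 in B9 and 98.04 in B10, against 629.5 in P2, 276 in Ln4.2 and 528 in Ln4.3. The defining T and B cell markers CD3E, CD8A and MS4A1 had no identifier here. Only 1 lymphocyte member was called without B8, 1 without P2, 3 without Ln4.2, 4 without Ln4.3 and 0 without both lymph node tissues, where P2 alone stood for PAC. The sum was highest in P2, a single prostate tissue, followed by Ln4.3 and Ln4.2. The part of lymph node tissue in these differences was not tested.

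Of 26 tested myeloid genes, 7 were called higher in PAC (4.81% of all genes tested) and 23 had a negative log2 fold change. In 17 the groups did not overlap, with PAC higher (10.4% of all genes tested). LY86, a partner of the Toll-like receptor homolog RP105, had 0.243 CPM in P6.1, 0 in B7, 0.115 in B8, 0.06998 in B9 and 0.491 in B10, against 12.2 in P2, 4.01 in Ln4.2 and 3.097 in Ln4.3 (log2 fold change -5.11, SE 0.89, adjusted p = 0.01905, per dog 0.0332, dog as a block 0.119). RAC2, the small GTPase of blood cells, had 1.81 to 15.1 CPM in TCC and 71.2 in P2, 34.8 in Ln4.2 and 82.1 in Ln4.3 (log2 fold change -3.35, adjusted p = 0.0246). NCKAP1L, a cytoskeletal regulator of blood cells, had a log2 fold change of -3.04 (adjusted p = 0.0236), C3AR1, a complement receptor, of -2.99 (0.0282) and FGR, a Src family kinase, of -2.97 (0.0387), and FGR was not called per dog (0.0642). C1QC, a chain of complement C1q made by macrophages, overlapped, with 460.2 CPM in P6.1, 26.6 in B7, 109.5 in B8, 20.1 in B9 and 88.7 in B10, against 619 in P2, 189.7 in Ln4.2 and 415 in Ln4.3 (adjusted p = 0.336), so that P6.1 lay above both metastases. CYTH4, an exchange factor of blood cells, was not called at -2.87 (adjusted p = 0.0732). CLEC7A, the fungal receptor dectin-1, had the highest log2 fold change of the list, with 6.13 CPM in P6.1, 3.35 in B7, 46.96 in B8, 8.33 in B9 and 83.6 in B10, against 1.73 in P2, 1.22 in Ln4.2 and 1.55 in Ln4.3 (log2 fold change 4.299, adjusted p = 0.0671). All TCC tissues lay above all PAC tissues for CLEC7A. No myeloid member was called without B8, without B9 or without P2, 4 without Ln4.2, 2 without Ln4.3 and 1 without both lymph node tissues.

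No gene of antigen presentation passed the test, with 4 members tested, and the median log2 fold change was -0.67. DLA-DRA, the alpha chain of a canine MHC class II molecule, had 1103 CPM in P6.1, 39.01 in B7, 555 in B8, 457 in B9 and 1391 in B10, against 1307 in P2, 557 in Ln4.2 and 1606 in Ln4.3 (adjusted p = 0.6397), and DLA-79, a class I gene, had a log2 fold change of -0.697 (adjusted p = 0.595). B7 was the lowest tissue for both. The canine class I genes resemble each other, so that reads may have been split between them.

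A secreted factor had the largest fold change in the PAC direction among the genes with a symbol. IGF1, the insulin-like growth factor made mainly by stromal cells and liver, had 0 CPM in P6.1, 0 in B7, 0.115 in B8, 0.1400 in B9 and 0.0818 in B10, against 53.1 in P2, 12.3 in Ln4.2 and 7.29 in Ln4.3 (log2 fold change -8.34, SE 1.001, adjusted p = 0.0117, per dog 0.0161, dog as a block 0.105). Every TCC tissue was at or below 2 counts, and the call was kept with each tissue left out. Without both lymph node tissues, where P2 alone stood for PAC, the log2 fold change of IGF1 was -9.41. FGF23, a hormone that lowers blood phosphate and is normally made in bone, had 204 counts over the 3 PAC tissues and 1 over the 5 TCC tissues, a ratio of 348 after scaling (95% exact interval 61.8 to 13826, covering counting error only). In CPM this was 1.44 in P2, 6.65 in Ln4.2 and 5.55 in Ln4.3, which are low levels, against at most 0.0818 in TCC. The log2 fold change of FGF23 was -7.69 (adjusted p = 0.0117, per dog 0.0208). Without both lymph node tissues it was -5.98, a value that rests on 20 counts in P2 alone. C1QTNF3, an adipokine, and ANGPTL2, an angiopoietin-like factor of stroma, were also called higher in PAC, with log2 fold changes of -5.98 (adjusted p = 0.0331) and -4.81 (0.02904). RETN, resistin of macrophages and fat, had -4.69 (adjusted p = 0.03795, per dog 0.0642). C1QTNF3 overlapped, with 0.903 CPM in Ln4.3 and 0.971 in P6.1.

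Including IL2RG, 6 of 19 tested cytokines and receptors were called higher in PAC (4.81% of all genes tested) and 0 higher in TCC. The list holds 28 genes, and the others had too few counts to be tested. IGF1, FGF23, C1QTNF3 and RETN passed the count filter through the PAC tissues alone. Their direction was thus largely set by the filter, and the count is no evidence of a one-sided list. The median of the list was -1.01. IL6, an inflammatory cytokine, rested on a single tissue, with 142 CPM in Ln4.2 and 1.68 to 6.33 in the other PAC tissues, against 0.201 to 2.85 in TCC (log2 fold change -5.23, adjusted p = 0.0579). WNT11, a non-canonical Wnt ligand, had 7.05 CPM in P2, 14.5 in Ln4.2 and 2.26 in Ln4.3 and 2.46 in B10, with at most 0.303 in the other TCC tissues (log2 fold change -3.76, adjusted p = 0.1195). VEGFA, the main growth factor of blood vessels, pointed the other way from the endothelial genes, at 184 CPM in P6.1, 434 in B7, 161 in B8, 45.98 in B9 and 185 in B10, against 42.2 in P2, 59.3 in Ln4.2 and 39.9 in Ln4.3 (log2 fold change 2.099, adjusted p = 0.0829). It was not called, but every TCC tissue except B9 lay above all PAC tissues, since B9 lay between P2 and Ln4.2 in the order of levels. Only 2 members of the list were called without B8, 2 without B9, 3 without P2, 2 without Ln4.2 and 1 without both lymph node tissues.

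Of 20 tested developmental transcription factors, 1 was called higher in TCC (1.37% of all genes tested) and 1 higher in PAC (4.81%). A single call in 20 is near the share over all genes on the PAC side. TBX18, a T-box factor of the mesenchyme around the developing ureter, had at most 0.2099 CPM in TCC and 32.96 in P2, 6.38 in Ln4.2 and 7.94 in Ln4.3 (log2 fold change -7.29, SE 0.86, adjusted p = 0.0117, per dog 0.0161, dog as a block 0.09500). It kept its call with each tissue left out, and its log2 fold change was -8.30 without both lymph node tissues. The other 18 of 20 tested members were not called, and the median of the list was 0.56. HOXB7, a posterior homeobox gene, had 32.4 CPM in P6.1, 23.02 in B7, 14.2 in B8, 27.6 in B9 and 19.6 in B10, against 6.91 in P2, 11.2 in Ln4.2 and 8.58 in Ln4.3, and the groups did not overlap (log2 fold change 1.39, adjusted p = 0.0619). EGR3, an immediate early gene, had 0.246 to 1.33 CPM in TCC and 1.22 in P2, 9.37 in Ln4.2 and 3.35 in Ln4.3 (log2 fold change -2.700, adjusted p = 0.0625). SNAI2, an epithelial-mesenchymal transition factor, overlapped, at 133 CPM in P6.1, 111 in B7, 27.4 in B8, 13.8 in B9 and 14.1 in B10, against 73.1 in P2, 27.5 in Ln4.2 and 12.1 in Ln4.3 (adjusted p = 0.681).

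No prostate marker passed the test. Of 22 markers, 12 had an identifier and 8 were tested, with 0 called in either direction. Of the 8, 7 had a positive log2 fold change (8164 of all 13755 genes tested), and the median was 1.77. HOXB13, the homeobox factor that specifies the prostate, had 21.8 CPM in P6.1, 14.7 in B7, 19.4 in B8, 5.11 in B9 and 9.82 in B10, against 0 in P2, 2.51 in Ln4.2 and 3.29 in Ln4.3 (log2 fold change 2.87, SE 1.09, edgeR adjusted p = 0.149, DESeq2 0.0252). Every TCC tissue, the 4 bladder tumors included, lay above the highest PAC tissue, and P2 had 0 counts. TMPRSS2, an androgen-regulated serine protease of the luminal membrane, had 482 CPM in P6.1, 9.57 in B7, 711 in B8, 1903 in B9 and 878 in B10, against 0.504 in P2, 24.7 in Ln4.2 and 32.1 in Ln4.3 (log2 fold change 5.38, SE 1.72, edgeR adjusted p = 0.0968, DESeq2 0.000281). B7 lay below both metastases, and edgeR called the gene when B7 was left out. PSCA, the prostate stem cell antigen that urothelium also carries, had 96.05 CPM in P6.1, 10.8 in B7, 52.6 in B8, 1084 in B9 and 59.7 in B10, against 0 in P2, 40.2 in Ln4.2 and 60.8 in Ln4.3 (adjusted p = 0.365). B9 was the highest tissue by far, and P2 again had 0 counts.

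GOLM1, a Golgi membrane protein, was the only tested prostate marker with a negative log2 fold change (-1.19, adjusted p = 0.225), at 30.2 CPM in P6.1, 13.7 in B7, 55.6 in B8, 53.96 in B9 and 10.1 in B10, against 57.1 in P2, 74.9 in Ln4.2 and 92.3 in Ln4.3. The groups did not overlap. FOLH1, the prostate-specific membrane antigen PSMA, had 18.7 CPM in P6.1, 14.9 in B7, 175 in B8, 94.1 in B9 and 75.5 in B10, against 39.4 in P2, 58.9 in Ln4.2 and 3.23 in Ln4.3 (adjusted p = 0.504). FASN, the fatty acid synthase, had 401 to 1630.4 CPM in TCC and 162 to 734 in PAC, and GSTP1, a glutathione transferase, 42.4 to 335 and 60.8 to 81.6 (adjusted p = 0.483 and 0.187). TMEFF2, a transmembrane protein of prostate and brain, was highest in P6.1 at 26.7 CPM, with 0.134 to 5.48 in the bladder tumors and 1.55 to 1.697 in PAC (adjusted p = 0.373). The remaining 4 markers were too low to be tested. AMACR, a peroxisomal racemase, had at most 3.21 CPM in any tissue, and KLK2, a prostate kallikrein, had 0 counts in all 8 tissues, where 3 counts would correspond to 0.172 to 0.246 CPM.

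**Figure D5:**
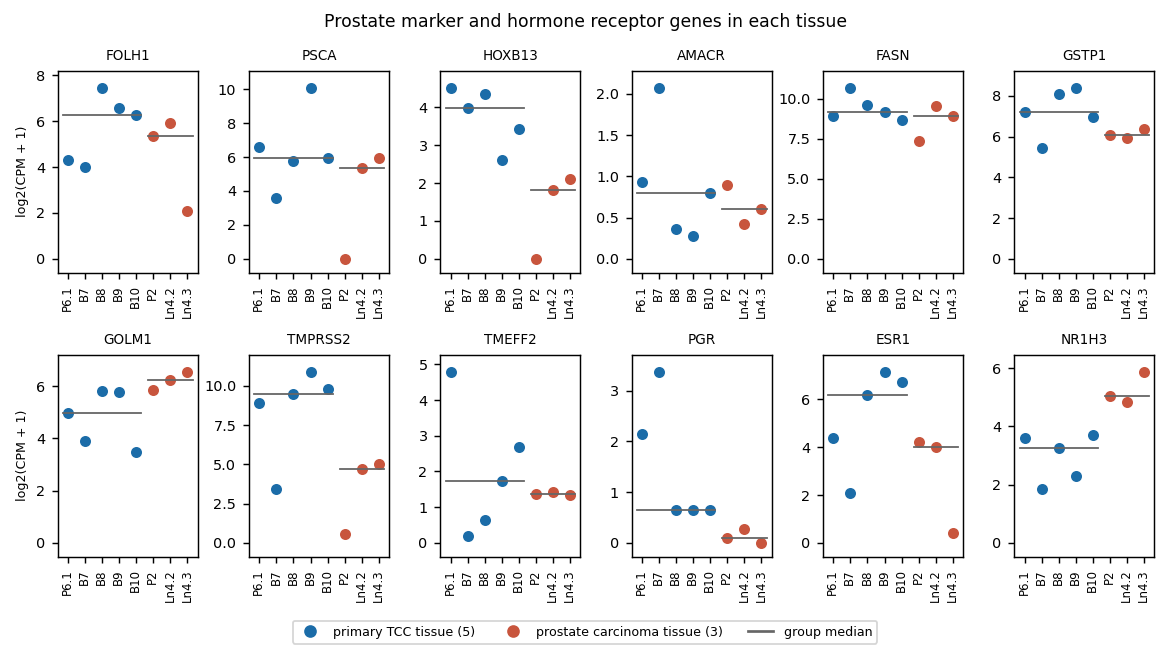
Levels of 9 prostate marker genes, PGR, ESR1 and NR1H3 in each tissue as log2(CPM + 1), 1 point per tissue, with the group median as a line. HOXB13 and PGR are higher in every TCC tissue, GOLM1 and NR1H3 are higher in every PAC tissue, and the groups overlap in the other 8 genes.

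Of the hormone receptor and androgen independence genes, 12 had an identifier and 3 were tested. NR1H3, the oxysterol receptor LXR-alpha that controls cholesterol export in macrophages and liver, was called higher in PAC, with 11.04 CPM in P6.1, 2.61 in B7, 8.67 in B8, 3.92 in B9 and 11.9 in B10, against 31.6 in P2, 27.4 in Ln4.2 and 57.6 in Ln4.3 (log2 fold change -2.35, SE 0.53, adjusted p = 0.0382). The call was lost per dog (0.0829) and without B8, B9 or any PAC tissue. Myeloid genes were higher in the same tissues, and their part in this difference was not tested. ESR1, the estrogen receptor alpha, had 19.8 CPM in P6.1, 3.28 in B7, 71.5 in B8, 140.5 in B9 and 103 in B10, against 17.6 in P2, 15.2 in Ln4.2 and 0.323 in Ln4.3 (log2 fold change 2.61, adjusted p = 0.257). B8, B9 and B10 were the highest tissues, and B7 and Ln4.3 were the lowest. AURKA, a mitotic kinase linked to androgen independence, had 4.31 (P6.1) to 90.3 (B7) CPM in TCC and 8.71 to 27.5 in PAC (log2 fold change 1.07, adjusted p = 0.424).

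The other hormone genes were low. PGR, the progesterone receptor, had 3.46 CPM in P6.1, 9.37 in B7, 0.574 in B8, 0.5599 in B9 and 0.573 in B10, against 0.07197 in P2, 0.204 in Ln4.2 and 0 in Ln4.3, which corresponds to 7 to 140 counts in TCC and 0 to 3 in PAC. HNF4G, a nuclear receptor of gut and kidney, had 0.2296 to 3.57 CPM in TCC and 0.0645 to 0.216 in PAC. The groups did not overlap for these genes, which had too few counts in some tissues of each group to enter the test. PRLR, the prolactin receptor, reached 10.5 CPM in B7, and NR1H4, the bile acid receptor FXR, reached 21.2 in B8, against at most 1.22 and 1.35 in PAC. HSD3B2, a steroid synthesis enzyme, had at most 1.21 CPM, with 35 counts over the TCC tissues and 2 over the PAC tissues. ESR2, the estrogen receptor beta, had 7 counts over the TCC tissues and 0 over the PAC tissues, and SPINK1, a trypsin inhibitor, had 0 counts in every tissue.

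Mitosis, kinase and retinoid genes gave no calls. In the mitosis list 0 of 22 tested members were called, and the median log2 fold change was 0.68, which turned to -1.07 with sex as a covariate. CCNB1, the mitotic cyclin B1, had 8.01 CPM in P6.1, 172 in B7, 33.4 in B8, 44.4 in B9 and 72.3 in B10, against 10.8 in P2, 31.02 in Ln4.2 and 45.1 in Ln4.3 (log2 fold change 1.19, adjusted p = 0.422), so that B7 was the highest tissue and P6.1 the lowest. SASS6, a centriole protein, had a log2 fold change of 1.17 (adjusted p = 0.285). In the list of kinase signalling and drug targets 0 of 26 members were called, and the median was -0.03. EGFR, a receptor tyrosine kinase targeted in carcinomas, had 114 CPM in P6.1, 109 in B7, 145 in B8, 197 in B9 and 65.5 in B10, against 44.3 in P2, 62.9 in Ln4.2 and 65.9 in Ln4.3 (log2 fold change 1.13, adjusted p = 0.114). B10, the lowest TCC tissue, lay just below Ln4.3, the highest PAC tissue, and the other TCC tissues lay above all PAC tissues. PTGS1, the cyclooxygenase COX-1, did not overlap and had 5.97 to 41.8 CPM in TCC and 2.66 to 5.02 in PAC (log2 fold change 2.146, adjusted p = 0.116), and PIK3R3, a regulatory subunit of PI3K, had -2.34 (0.122). Of 5 tested retinoid genes none was called. RDH12, a retinol dehydrogenase, did not overlap, with 20.02 CPM in P6.1, 14.5 in B7, 1.09 in B8, 27.6 in B9 and 2.54 in B10, against 0.144 in P2, 0.611 in Ln4.2 and 0.774 in Ln4.3 (log2 fold change 4.66, adjusted p = 0.0563). RBP4, the retinol carrier of plasma, had 1749 CPM in P6.1 and 0.669 in B7, with 7.48 to 203 in PAC (adjusted p = 0.674).

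Because sex differed between the groups, 6 genes listed here as X-linked and able to escape X inactivation were also examined. Whether each of them does so in dogs was not tested. Sex and tumor type run together here, so that these genes cannot show the part of sex in the other results. None was called, and their median log2 fold change was -0.04. PRKX, a protein kinase, had 208 CPM in P6.1, 81.4 in B7, 17.2 in B8, 26.5 in B9 and 23.7 in B10, against 157 in P2, 229.6 in Ln4.2 and 271 in Ln4.3 (log2 fold change -1.62, adjusted p = 0.233), so that P6.1 lay among the PAC tissues and the bladder tumors lay below all males. SMC1A, a cohesin subunit, had a log2 fold change of 0.48 (adjusted p = 0.455).

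Genes with the largest changes were also chosen by size alone, among those that did not overlap and were called per dog. Only 3 with a symbol met this in TCC, TP63 and ITGB6 among them. In the PAC direction the 10 largest were IGF1, FGF23, TBX18, EFEMP1, COL1A1, COL1A2, LOX, A2M, ECM2 and SLITRK2. A2M, the protease inhibitor alpha-2-macroglobulin, had 10.7 CPM in P6.1, 1.204 in B7, 2.41 in B8, 3.15 in B9 and 11.8 in B10, against 28.3 in P2, 63.1 in Ln4.2 and 666 in Ln4.3 (log2 fold change -5.43, adjusted p = 0.03097), and lost its call without Ln4.3, its highest tissue, and without B8 or B9. ECM2, a matrix protein of fat and muscle, had 205 CPM in P2, 161 in Ln4.2 and 18.6 in Ln4.3, and at most 10.9 in TCC (log2 fold change -5.22, adjusted p = 0.0298). SLITRK2, a neuronal adhesion protein, had 74 counts over the PAC tissues and 3 over the TCC tissues. The ratio was 42.1 after scaling (95% exact interval 13.9 to 209, covering counting error only). Among the genes without a symbol, ENSCAFG00000013016 had 6160 counts over the TCC tissues and 0 over the PAC tissues, which is at least 1202-fold higher against a floor of 3 counts over the group. ENSCAFG00000000843 had 1284 CPM in P6.1, 72.00 in B7, 1096 in B8, 1853 in B9 and 1012 in B10, against 0.07197 in P2, 0.543 in Ln4.2 and 0.452 in Ln4.3. In the other direction, ENSCAFG00000018312 had 902 counts over the PAC tissues and 0 over the TCC tissues (at least 513-fold higher), and ENSCAFG00000020220 had 521 CPM in P2, 1720.2 in Ln4.2 and 1.03 in Ln4.3, against at most 0.2799, so that Ln4.3 was far below the other PAC tissues.

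The tissues within each group also differed among themselves. Of 13755 genes, Ln4.2 exceeded Ln4.3 more than 4-fold (on CPM + 1) in 305 and fell below it in 74, although both came from the same dog. COL1A1 was 6.38-fold, COL3A1 8.59-fold and DCN 32.5-fold higher in Ln4.2 than in Ln4.3, while EPCAM was alike (0.901-fold). P2 exceeded Ln4.2 more than 4-fold in 180 genes and lay below it in 522, and exceeded Ln4.3 in 590 and lay below it in 639. P6.1, the TCC of the prostate, lay on the TCC side for every one of the 188 genes called higher in TCC and for 644 of the 662 called higher in PAC, although it entered the test that chose them. It had the highest TCC levels of COL1A1, DCN and ACTA2. These values describe single tissues and were not tested.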

How the data were processed

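RNA of 8 frozen tumor tissues was sequenced on 4 lanes each. Trimming with Trimmomatic 0.36, alignment with STAR 2.5.3 and quantification with RSEM 1.3.0 were done by the authors, who deposited an expected count and an effective length per gene and lane. Reads shared by similar genes are divided by RSEM, so that expected counts need not be whole. The deposited expected counts of the 4 lanes were summed per tissue and rounded, giving 11920463 to 18086895 counts (median 14439460). Low genes are therefore limited by counting error, and 3 counts served as the floor.

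Genes with at least 10 counts in all tissues of a group (13755 of 32183) were tested with edgeR 4.0.16 (TMM, quasi-likelihood, no covariate) in R 4.3.3, with two-sided p-values adjusted by Benjamini-Hochberg. The code was tested on simulated data. Calls were planned at an adjusted p of 0.01 and a fold change of 2. This gave 0 genes, so calls at an adjusted p of 0.05, which had been listed beside it, are described. Other alternatives were DESeq2 1.42.0, counts summed per dog, limma 3.58.1 (voom) with the dog as a block, other size factors, other filters, sex as a covariate and each tissue left out. No level is set across genes. Each tissue was treated as a sample, although Ln4.2 and Ln4.3 share a dog.

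Symbols were taken from gene names paired with identifiers in the study's supplement, which covered 1120 identifiers. The reference gene table matched none of the others. That supplement describes genes that differed between cell lines and tissues, with P2, Ln4.2 and Ln4.3 among the tissues, and genes ranked for drug resistance. The study found most of the differing genes lower in the cell lines. Genes with a symbol, and so the list members counted here, are no even sample of all genes. Lists of the study's Gene Ontology terms were not used because their identifiers were held only in part. Named genes were all prostate markers and hormone receptors, up to 5 called members per list and direction with 1 to 3 not called, and the 10 largest non-overlapping changes per direction that were also called per dog. Further list members (such as EPCAM, DCN, KDR, VEGFA, EGFR and LAMB3) and the genes without a symbol were named after their values were seen. The tissues and lists were chosen with earlier results of these data known. Some members of the lists are counted in their lists but not reported here by name. The metastasis Ln6.2 and all cell lines were not used here.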

Additional observations from a re-analysis of the deposited data

Results flagged for a closer look

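In 10 of 97 values examined in the 5 TCC tissues, the highest or lowest tissue stood apart from the other 4 by Dixon's criterion for 5 samples (gap to the nearest tissue over the whole range, on the log2 scale). Chance alone flags about 5% of such groups. B7 was far below the other TCC tissues in TMPRSS2 (9.57 CPM), RIPK4 (7.03 CPM), PREX2 (2.07 CPM) and the summed genes of MHC and antigen presentation (462 CPM). B10 was far above them in COL6A5 (12.4 CPM), WNT11 (2.46 CPM) and FGF23 (0.0818 CPM, a single count against 0 in the others), and below them in the summed X-linked genes (398 CPM). P6.1 was far above them in C1QTNF3 (0.971 CPM) and in the summed fibroblast and matrix genes (8064 CPM). The groups of 3 PAC tissues are too small for this criterion.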

How the results depend on the processing

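No paired analysis was possible because no dog gave tissues to both groups. At an adjusted p of 0.01, edgeR's 0 calls became 850 at an adjusted p of 0.05, 4 per dog, 3 with DESeq2's size factors, 63 without a count filter, 1438 with DESeq2 and 3321 when scaled to epithelial genes, and 0 to 11 with a tissue left out. At 0.05, the 850 calls became 470 per dog, 0 with the dog as a block, 2129 with DESeq2, 0 with sex as a covariate, 193 without both lymph node tissues and 7457 (87 higher in TCC and 7370 higher in PAC) on the epithelial scale, and 123 (without B8) to 1095 (without P6.1) with a tissue left out (225 without B9, 159 without P2, 255 without Ln4.2, 481 without Ln4.3, 1022 without B7 and 851 without B10). The share of calls that were higher in TCC was 22.1% in the test reported, 8.51% per dog and 32.4% with DESeq2. The epithelial scale and the comparison without both lymph node tissues, in which P2 is assumed to vary like the TCC tissues, were chosen after seeing the data. The cause of these changes was not tested, except that fewer samples enter when tissues are left out or summed.

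Members called at 0.05 changed by more than 1.5 times in the following lists. DESeq2 called 2 prostate, 8 homeobox, 6 basal, 12 epithelial junction, 3 smooth muscle, 13 endothelial, 17 myeloid, 1 retinoid and 3 kinase genes. Per dog, 0 hormone receptor, 1 basal, 2 endothelial, 4 lymphocyte and 4 myeloid genes were called. With sex as a covariate, 0 members of any list were called. Without both lymph node tissues, 1 prostate, 0 hormone receptor, 1 basal, 3 epithelial junction, 10 matrix, 1 endothelial, 0 lymphocyte, 1 myeloid and 1 cytokine genes were called. On the epithelial scale, 2 prostate, 10 homeobox, 5 basal, 2 epithelial junction, 39 matrix, 6 smooth muscle, 17 endothelial, 12 lymphocyte, 24 myeloid, 3 MHC, 5 mitosis, 2 retinoid, 14 cytokine, 15 kinase and 5 X-linked genes were called. With each tissue left out, the calls ranged from 0 to 1 for prostate, hormone receptor, kinase and X-linked genes, from 2 to 5 for homeobox, 0 to 4 for basal, 0 to 3 for epithelial junction, 2 to 21 for matrix (18 without B7), 0 to 2 for smooth muscle, 0 to 7 for endothelial, 1 to 8 for lymphocyte, 0 to 10 for myeloid and 2 to 6 for cytokine genes.

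Of the 69 named genes tested, 9 lost their call per dog and 33 with sex as a covariate, and 6 of the 33 called genes kept it with every tissue left out (among them TBX18, COL1A2, P2RY10, IGF1 and FGF23). The log2 fold change turned negative with sex as a covariate for FOLH1 (-0.86), AURKA (-2.25), CCNB1 (-1.85), SASS6 (-1.04) and SMC1A (-0.46). The epithelial scale lowers the log2 fold change of all genes (median 0.19 before and -2.07 after), so that small positive values turn by its construction, as they did for FOLH1 (-1.47), FASN (-0.81), GSTP1 (-0.99), ESR1 (-0.30), AURKA (-0.56), LAMA3 (-0.083), CCNB1 (-0.30), SASS6 (-0.98), RBP4 (-0.63), PTGS1 (-0.027) and SMC1A (-1.69). It turned positive for DLA-79 without P2 (0.25) and negative for RBP4 without P6.1 (-2.48). PC1 held 59.3% of the variance with the 500 most variable genes and 39.4% to 51.7% with a tissue left out.

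The PAC group holds 2 dogs, and its tissues come from a prostate and from lymph nodes, while 4 of 5 TCC tissues come from the bladder of females. Both PAC dogs were also younger than every TCC dog. Tumor type, organ, sex, age and tissue makeup therefore cannot be told apart for most genes. Genes with few counts, such as FGF23, SLITRK2, HSD3B2 and ESR2, are limited by counting error. Only 1120 of 32183 identifiers had a symbol, so that most called genes are not named.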
